A study of Rattus norvegicus with 18 samples.

Results

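Hippocampal RNA of rats that had seizures after kainic acid was compared with that of sham rats of the same model, across all genes. The 10 libraries were chosen by their labels, 3 named KA 3 Class V and 7 named KA sham, out of 18 in the whole series. The count table held 17455 gene symbols, of which 13196 had enough reads in these 10 libraries to be tested. All animals were adult male Sprague-Dawley rats of 170 to 280 g. The kainic acid animals had electrodes implanted and then received kainic acid systemically, in stepped injections, until status epilepticus. The labels do not define "3 Class V", and neither the dose nor what the sham rats received is given in the sources used here. Tissue was taken 24 h after the last seizure, and RNA came from the left hippocampus, so the data describe 1 time point and no cell type separately. The labels do not state that each library is a different rat, so p-values measure the spread between these libraries.

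Kainic acid is an agonist of the kainate class of glutamate receptors, and given to rodents it sets off prolonged limbic seizures that begin in the hippocampus. In this model, pyramidal neurons of the hippocampus can die, astrocytes and microglia become reactive, and many animals later develop spontaneous seizures. Reactive astrocytes raise intermediate filament and stress proteins, whereas microglia carry complement receptors and can present antigen on major histocompatibility complex (MHC) class II molecules.

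The 10 libraries held 32150130 to 49943021 counted reads each, and levels are given as CPM, the reads of a gene relative to the scaled total of its library. As a check of the labelled tissue, pyramidal cell markers summed to 2008 to 3243 CPM over the 10 libraries, dentate granule cell markers to 323 to 532 CPM and interneuron markers to 419 to 1003 CPM. Thalamus and neighbouring cortex markers summed to 302.5 to 514.9 CPM, so these sums alone do not show how cleanly the hippocampus was dissected. The library KA 3 Class V 3 stood apart. Of 11468 genes with a mean of at least 1 on the log2 CPM scale, 60 were at least 2-fold higher in it than in each of the other 9 libraries, whereas the other libraries had 0 to 14 such genes. KA sham 1 was the highest sham for 21 of those 60 genes, or 35%, against 18.8% of all 11468 genes. KA sham 4 had 9.67% of its reads in genes resembling ribosomal RNA, against 0.571% to 2% in the other libraries, and KA sham 2 was the library farthest along the first principal component, which held 40.2% of the variance. The rule of the comparison, and not these values, named KA sham 1 and KA 3 Class V 3 as libraries to leave out. Results are given with and without them.

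At 24 h after the last seizure, 17 genes were higher in the 3 Class V hippocampus than in sham, and 0 were lower. The 17 genes were 0.129% of the 13196 tested in edgeR's quasi-likelihood test at a Benjamini-Hochberg adjusted p below 0.05. They rose 1.62-fold to 8.38-fold, with a median of 3.96-fold and adjusted p-values from 0.0123 to 0.0496. In all 17, each of the 3 seizure libraries lay above each of the 7 shams, a separation seen in 449 of all genes tested (3.4%), and 943 genes (7.15%) were higher at an unadjusted p below 0.05. They include 5 genes of antigen presentation on MHC class II (Cd74, Ciita, RT1-Ba, RT1-Db1 and RT1-Db2), genes of reactive astrocytes (S1pr3, Aspg, Hspb1), the activity gene Fos, and Acoxl, Lrrc8e, Fgfbp1, Fgl2, Pla2g7, Sulf1 and Ednrb.

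The number of calls rested on single libraries. Without KA 3 Class V 3, without KA 3 Class V 2, or without both KA sham 1 and KA 3 Class V 3, edgeR called 0 genes in either direction (581 higher and 296 lower, 667 and 363, and 455 and 459 at an unadjusted p below 0.05). Without KA 3 Class V 1 it called 15 higher and 0 lower, with 11 of the 17 among them. Without KA sham 1 it called 23 higher (0.174%) and 7 lower (0.0531%), and without KA sham 4 it called 38 and 1. Without KA sham 2 it called 17 and 2, and without KA sham 3 it called 14 and 0. Without KA sham 5, 6 or 7 it called 8, 7 and 6 higher. DESeq2 called 230 genes higher (1.74%) and limma-voom with quality weights 307 (2.33%), 183 of them in both and all 17 among these. With KA 3 Class V 3 left out, DESeq2 called 69 genes higher (0.519%) and 57 lower (0.429%), including 16 of the 17. With both KA sham 1 and KA 3 Class V 3 left out it called 78 (0.588%) and 104 (0.784%), again including 16 of the 17. All 17 kept a positive fold change whichever library was left out. The lack of overlap between the groups fixed that outcome beforehand, so it is no separate support. Fos, S1pr3, Aspg and RT1-Db1 passed in 8 of the 10 fits that left out 1 library, and Fgfbp1 passed in 1.

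**Figure D1:**
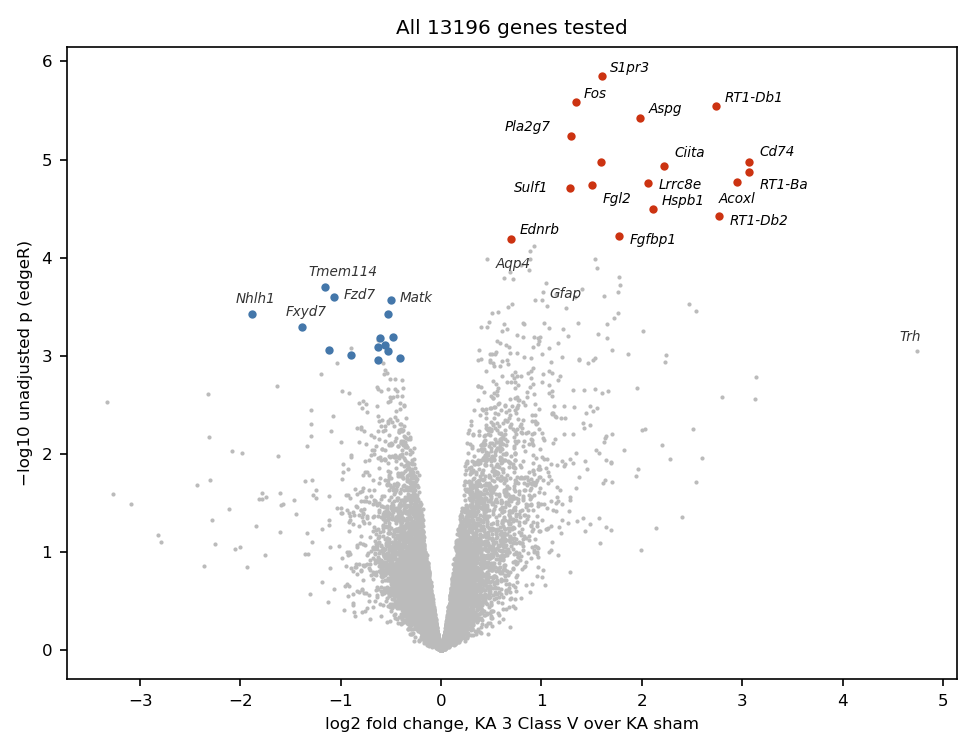
Each point is 1 of the 13196 genes tested, with its log2 fold change (3 Class V over sham) on the horizontal axis and −log10 of the unadjusted edgeR p on the vertical axis. The 17 genes called higher, in red, have folds of 1.62 to 8.38. The 15 blue genes are those with the smallest p among genes whose 3 Class V libraries all lie below the shams, and none of them passed the adjusted threshold.

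Of the 17 genes called higher, 5 belong to MHC class II presentation, and Cd74 and RT1-Ba had the highest folds. Class II molecules are pairs of an alpha and a beta chain that display peptides to CD4 T cells. In the rat they are encoded by the RT1-B and RT1-D genes, the invariant chain Cd74 chaperones them, and Ciita is the coactivator that switches the class II genes on. Of 17 tested genes on a list of class II presentation, edgeR called 5 higher and 0 lower (7 and 0 at an unadjusted p below 0.05), DESeq2 and limma-voom each called 6 higher and 0 lower, 14 had a positive fold change (48.8% of all genes tested did), and the median log2 fold change was 0.62 against -0.007 over all genes.

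Ciita stood at 2.15, 3.85 and 3.77 CPM in the 3 Class V libraries, against a lowest of 0.474, a median of 0.559 and a highest of 1.004 CPM in the shams. It rose 4.65-fold (log2 fold change 2.22 ± 0.30 SE, adjusted p = 0.019). Cd74 stood at 377, 533 and 399 CPM, against 23.02, 49.7 and 115 CPM as the lowest, median and highest sham. It rose 8.38-fold (log2 3.07 ± 0.40 SE, adjusted p = 0.019), and without KA 3 Class V 3 its log2 fold change was 3.13. For both genes the lowest seizure library lay well above the highest sham.

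The alpha chain gene RT1-Ba stood at 29.0, 46.1 and 39.1 CPM, against 1.62, 4.14 and 9.21 CPM in the shams, and rose 8.38-fold (adjusted p = 0.0196). The beta chain gene RT1-Db1 stood at 25.2, 35.5 and 32.8 CPM, against 2.73, 3.86 and 7.55 CPM, and rose 6.69-fold (adjusted p = 0.0123). RT1-Db2, a second beta chain gene outside the rule for named genes, was scarcer at 2.45, 2.88 and 2.34 CPM, against 0.0903, 0.442 and 0.709 CPM, and rose 6.82-fold (adjusted p = 0.0334). RT1-Da, which pairs with the RT1-Db chains, missed the threshold (log2 2.54 ± 0.50 SE, adjusted p = 0.0929), although its levels of 56.4, 77.1 and 77.4 CPM all lay above the highest sham at 26.6 CPM. Near-identical RT1 genes share reads, and how such reads were counted is not given, so the split between RT1-Db1 and RT1-Db2 is uncertain.

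Promoters of 3 class II genes are shown because 5 of the 17 called genes belong to this pathway and class II promoters carry known shared elements. The 3 were picked, after the motifs were seen, from those that hold both. Ciita acts through proteins bound to the X box and to the Y box, which holds CCAAT. The RefSeq promoters below (build GRCr8, 250 bases before to 50 after the annotated start, 5′ to 3′ on the gene's strand) carry in capitals CCAAT on either strand (ATTGG on the printed one) and TNGCAAC, a short stretch of X boxes whose letters were chosen after the promoters were read.
RT1-Ba, chr20:4576807-4577106, plus strand: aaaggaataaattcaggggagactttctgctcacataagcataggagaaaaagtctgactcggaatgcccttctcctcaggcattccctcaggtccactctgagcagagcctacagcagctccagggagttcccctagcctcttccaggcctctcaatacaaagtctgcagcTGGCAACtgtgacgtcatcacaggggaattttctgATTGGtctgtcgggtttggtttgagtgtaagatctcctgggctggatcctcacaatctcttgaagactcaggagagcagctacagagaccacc
RT1-Da, chr20:4515165-4515464, plus strand: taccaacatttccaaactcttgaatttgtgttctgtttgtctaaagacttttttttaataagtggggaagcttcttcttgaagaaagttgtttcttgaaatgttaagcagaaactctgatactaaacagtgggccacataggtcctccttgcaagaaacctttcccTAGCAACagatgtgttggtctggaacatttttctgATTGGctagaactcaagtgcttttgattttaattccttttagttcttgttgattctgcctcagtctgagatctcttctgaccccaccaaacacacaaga
RT1-Db1, chr20:4560113-4560412, minus strand: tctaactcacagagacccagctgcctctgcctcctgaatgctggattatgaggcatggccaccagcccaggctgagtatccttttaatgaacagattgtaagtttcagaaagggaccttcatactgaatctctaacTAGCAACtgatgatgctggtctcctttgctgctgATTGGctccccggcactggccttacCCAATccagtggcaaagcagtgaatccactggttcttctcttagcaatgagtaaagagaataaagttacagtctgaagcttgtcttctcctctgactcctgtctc
TNGCAAC began 78, 84 and 114 bases before the start in RT1-Ba, RT1-Da and RT1-Db1, and the nearest downstream CCAAT began 43, 49 and 80 bases before it, with RT1-Ba and RT1-Da sharing the same step between the motifs. Of all 33469 RefSeq promoters of that length, 37.5% held CCAAT and 10.4% held TNGCAAC on either strand. RT1-Db2, which was called, held CCAAT but no TNGCAAC, and in Cd74 TNGCAAC began 72 bases before the start and CCAAT 189 bases before it, farther out. RT1-DOb, a class II beta chain gene outside the rule with a log2 fold change of -0.49 that did not pass, held both. Among the 17 called genes, 12 had an entry, of which 5 held CCAAT, 3 held TNGCAAC and 3 held TGANTCA, the core of AP-1 sites, found in 7.33% of all promoters. A match is a description of letters and not evidence of binding.

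**Figure D2:**
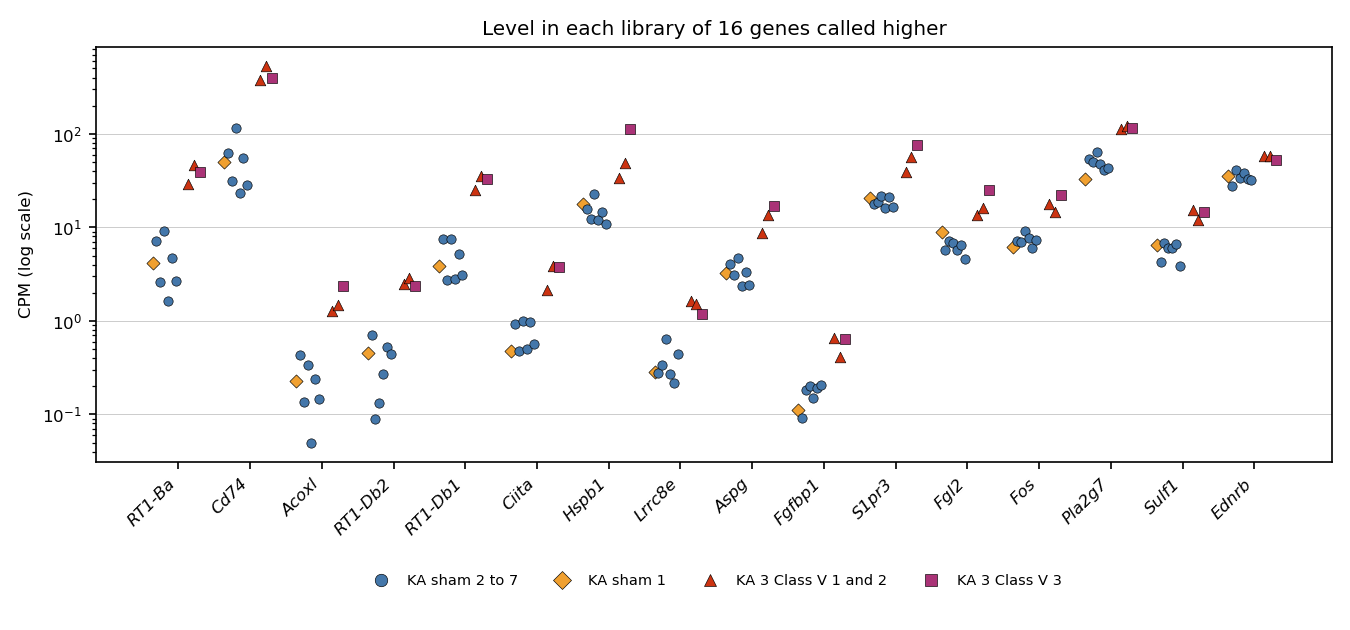
The level in every library of 16 of the 17 genes called higher, in CPM on a log scale, ordered by fold change. Circles are KA sham 2 to 7, the diamond is KA sham 1, triangles are KA 3 Class V 1 and 2, and the square is KA 3 Class V 3; for all 16 genes the 3 seizure libraries lie above the 7 shams.

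The other called genes include several that astrocytes express when reactive. S1pr3, a receptor for sphingosine-1-phosphate, stood at 38.6, 57.1 and 75.5 CPM, against 15.97, 18.5 and 21.6 CPM as the lowest, median and highest sham, and rose 3.03-fold (adjusted p = 0.0123). Aspg, an asparaginase found raised in reactive astrocytes, rose 3.96-fold (8.75, 13.6 and 17 CPM against 2.34, 3.24 and 4.72 CPM, adjusted p = 0.0123). Hspb1, a small heat shock protein, rose 4.33-fold (adjusted p = 0.0303), but its levels of 34.04, 48.7 and 113 CPM were uneven, and its log2 fold change of 2.11 dropped to 1.46 without KA 3 Class V 3. Ednrb, the endothelin B receptor of astrocytes, rose 1.62-fold (58.3, 57.9 and 52.3 CPM against 27.9, 33.7 and 41.1 CPM, adjusted p = 0.0496), the smallest change of the 17.

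Fos, the immediate early gene that neurons switch on with activity, stood at 17.98, 14.7 and 22.04 CPM, against 5.95, 7.09 and 9.24 CPM as the lowest, median and highest sham. It rose 2.53-fold (log2 1.34 ± 0.15 SE, adjusted p = 0.0123). Pla2g7, a secreted phospholipase that inactivates platelet-activating factor, was tightly grouped at 112, 120 and 116 CPM, against 33.1, 47.9 and 63.3 CPM, and rose 2.45-fold (adjusted p = 0.015). Fgl2, a fibrinogen-like protein with prothrombinase activity, rose 2.83-fold (13.7, 16.1 and 25.4 CPM against 4.56, 6.47 and 8.84 CPM, adjusted p = 0.0198). Sulf1, which trims sulphate from heparan sulphate chains, rose 2.44-fold (15.3, 12.1 and 14.6 CPM against 3.83, 6.05 and 6.73 CPM, adjusted p = 0.0198).

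Another 3 called genes were expressed at low levels. Acoxl, an acyl-CoA oxidase-like gene, rose 7.73-fold (1.29, 1.47 and 2.37 CPM against 0.0498, 0.225 and 0.432 CPM, adjusted p = 0.0198). Lrrc8e, a subunit of the volume-regulated anion channel, rose 4.17-fold (1.64, 1.53 and 1.20 CPM against 0.215, 0.282 and 0.636 CPM, adjusted p = 0.0198). Fgfbp1, which carries fibroblast growth factors, rose 3.42-fold (0.658, 0.406 and 0.636 CPM against 0.0925, 0.181 and 0.206 CPM, adjusted p = 0.0495). The filter on low counts asks for enough reads in as many libraries as the smaller group holds. For Fgfbp1 every sham fell short of that level, so the gene was tested only because its seizure libraries were high. Its call and its lack of overlap are therefore weak support.

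The mean level of reactive astrocyte genes was higher in each of the 3 seizure libraries than in any sham, and highest in KA 3 Class V 3. Of 27 on the list, 26 had a positive fold change and 3 were called by edgeR (S1pr3, Aspg and Hspb1), 0 lower. The median log2 fold change was 0.90 with all 10 libraries, 0.57 without KA 3 Class V 3 and 0.53 without both KA sham 1 and KA 3 Class V 3. DESeq2 called 12 of the 27 higher and limma-voom 12, against 1.74% and 2.33% of all genes. In bulk tissue, more cells of a type and more RNA per cell cannot be told apart.

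Gfap, the main intermediate filament of astrocytes, was named outside the rule. It stood at 7596, 9598 and 8735 CPM, against 2287, 3421 and 5575 CPM as the lowest, median and highest sham (log2 1.25 ± 0.24 SE, adjusted p = 0.0918). Vim, another intermediate filament gene outside the rule, stood at 292, 409 and 503 CPM, against 80.8, 161 and 229 CPM (log2 1.34 ± 0.25 SE, adjusted p = 0.085). Cp, the copper-carrying ferroxidase ceruloplasmin, stood at 29.3, 37.5 and 65.7 CPM, against 9.13, 14.3 and 20.8 CPM (log2 1.54 ± 0.26 SE, adjusted p = 0.0624). None of the 3 genes passed edgeR's adjusted threshold, and in each the groups did not overlap. All 3 passed in both DESeq2 and limma-voom.

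Astrocyte genes not tied to reactivity behaved unevenly. On a list of 17 homeostatic genes, 10 had a positive fold change and the median was 0.10. In edgeR 0 of them were called (3 higher and 0 lower at an unadjusted p below 0.05), DESeq2 called 1 higher and limma-voom 2 higher. Aqp4, the water channel of astrocyte endfeet, stood at 1219, 1464 and 1038 CPM, against 670, 750 and 873 CPM (log2 0.71 ± 0.13 SE, adjusted p = 0.0748). Gja1, the gap junction protein connexin 43, stood at 586, 768 and 623 CPM, against 416, 504 and 576 CPM (log2 0.42 ± 0.13 SE, adjusted p = 0.235). In both the 3 Class V libraries lay above every sham. The summed level of the 17 genes ranged from 12500 to 12880 CPM in the seizure libraries and from 9136 to 14980 CPM in the shams.

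Complement genes lay higher in the seizure libraries without reaching edgeR's threshold. The complement system tags material for removal, and in brain its early components and receptors are tied to synapse removal by microglia. Of 23 tested, 21 had a positive fold change, 0 were called by edgeR (12 higher and 0 lower at an unadjusted p below 0.05), 10 higher by DESeq2 and 10 by limma-voom, and in 10 every 3 Class V library lay above every sham (3.4% of all genes did). The median was 0.73 with all libraries and 0.40 without both KA sham 1 and KA 3 Class V 3. The list summed to 3624 to 4920 CPM in the seizure libraries and 2095 to 3677 CPM in the shams, with KA sham 4 the highest sham.

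Serping1, the inhibitor of the first component, stood at 103, 108 and 145 CPM, against 16.8, 31.1 and 64.2 CPM as the lowest, median and highest sham (log2 1.77 ± 0.32 SE, adjusted p = 0.0748). Itgb2 and Itgam are the chains of complement receptor 3, which in brain is carried by microglia and macrophages. Itgb2 stood at 71.2, 114 and 71.0 CPM, against 12.8, 18.9 and 40.9 CPM (log2 1.79 ± 0.33 SE, adjusted p = 0.0811), and Itgam at 68.8, 141 and 89.1 CPM, against 19.1, 27.4 and 51.1 CPM (log2 1.63 ± 0.31 SE, adjusted p = 0.085). C1s, a protease of the classical pathway, stood at 23.3, 32.3 and 37.6 CPM, against 10.2, 15.97 and 19.8 CPM (log2 1.06 ± 0.21 SE, adjusted p = 0.0917). The same separation held for C3, the central component, named outside the rule (238, 383 and 418 CPM against 53.7, 78.4 and 173 CPM, log2 1.76 ± 0.35 SE, adjusted p = 0.0929). C1qa, also outside the rule, overlapped the shams (213, 224 and 391 CPM against 95.7, 124 and 315 CPM).

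Microglial markers pointed the same way in smaller steps. Of 15, 13 had a positive fold change, and the median was 0.52 with all libraries and 0.56 without KA 3 Class V 3. As a sum the groups overlapped, at 1109 to 1469 CPM in the seizure libraries and 595.5 to 1183 CPM in the shams. KA sham 4 was the highest sham. EdgeR called 0 of the 15 (9 higher and 0 lower at an unadjusted p below 0.05), DESeq2 called 3 higher and limma-voom 2 higher. Ptprc, the CD45 antigen of all leukocytes, stood at 15.3, 25.0 and 19.9 CPM, against 5.52, 9.13 and 14.03 CPM (log2 1.19 ± 0.29 SE, adjusted p = 0.143). Csf1r, the receptor that keeps microglia alive, stood at 330, 492 and 369 CPM, against 122, 183 and 324 CPM (log2 0.94 ± 0.27 SE, adjusted p = 0.212). P2ry12, a purinergic receptor of resting microglia named outside the rule, overlapped the shams at 38.2, 33.6 and 33.4 CPM against 17.7, 28.3 and 47.1 CPM. Tmem119, a second marker of resident microglia outside the rule, also overlapped, with 53.0, 59.2 and 74.2 CPM against 41.8, 48.4 and 62.1 CPM. On a separate list of 23 activated microglia and macrophage genes, 21 had a positive fold change with a median of 0.51, 0 were called by edgeR (8 higher and 0 lower at an unadjusted p below 0.05) or DESeq2, and 2 were called higher by limma-voom. The groups overlapped on that list, which summed to 9815 to 10480 CPM in the seizure libraries and 7013 to 11620 CPM in the shams. KA sham 2 and KA sham 4, at 11620 and 11060 CPM, lay above every seizure library.

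Markers of blood leukocytes did not separate the groups as a list. Of 12 tested, 7 had a positive fold change and the median was 0.01. Of the list, 0 passed in edgeR (1 higher and 1 lower at an unadjusted p below 0.05), DESeq2 called 1 higher, and limma-voom 1 higher and 1 lower. The summed level of the 19 list genes in the table ranged from 49.6 to 84.5 CPM in the seizure libraries and from 21.3 to 80.3 CPM in the shams. Cd4, which in rats is also carried by microglia and macrophages, stood at 42.1, 42.3 and 45.4 CPM, against 7.51, 15.2 and 32.5 CPM (log2 1.47 ± 0.34 SE, adjusted p = 0.122), with every seizure library above every sham. Cd3e, a chain of the T cell receptor complex, stood at 2.60, 1.92 and 4.79 CPM, against 3.97, 5.65 and 9.66 CPM, with overlap. S100a9 of neutrophils and Cd79b of B cells, both outside the rule, were scarce and also overlapped, S100a9 with 0.716 to 2.33 CPM against 0.366 to 3.24 CPM and Cd79b with 0.271 to 0.43 CPM against 0.12 to 0.67 CPM. Whether entering leukocytes contribute to the class II levels was not tested.

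MHC class I, cytokine and interferon genes had few calls or none. Of 18 class I and immunoproteasome genes, 14 had a positive fold change with a median of 0.32. In edgeR 0 of these were called (5 higher and 0 lower at an unadjusted p below 0.05), and DESeq2 and limma-voom each called 1 higher. Of 20 cytokine and chemokine genes, 15 had a positive fold change with a median of 0.48, which became 0.09 without KA 3 Class V 3. EdgeR called 0 of the 20 (4 higher and 0 lower at an unadjusted p below 0.05), DESeq2 called 1 higher and limma-voom 2 higher. Csf1, the growth factor of microglia, stood at 45.9, 52.9 and 43.0 CPM, against 18.3, 30.7 and 35.4 CPM (log2 0.75 ± 0.20 SE, adjusted p = 0.171). Ccl7, a monocyte attractant, stood at 8.43 CPM in KA 3 Class V 3 but at 0.835 and 0.271 CPM in the other 2 seizure libraries, within the sham range of 0.0498 to 2.40 CPM. Il1b, outside the rule, overlapped between the groups at 0.986 to 1.83 CPM against 0.448 to 3.85 CPM. Of 23 interferon response genes, 12 had a positive fold change, with a median of 0.07 and 0 called by edgeR (7 higher and 0 lower at an unadjusted p below 0.05), DESeq2 or limma-voom.

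**Figure D3:**
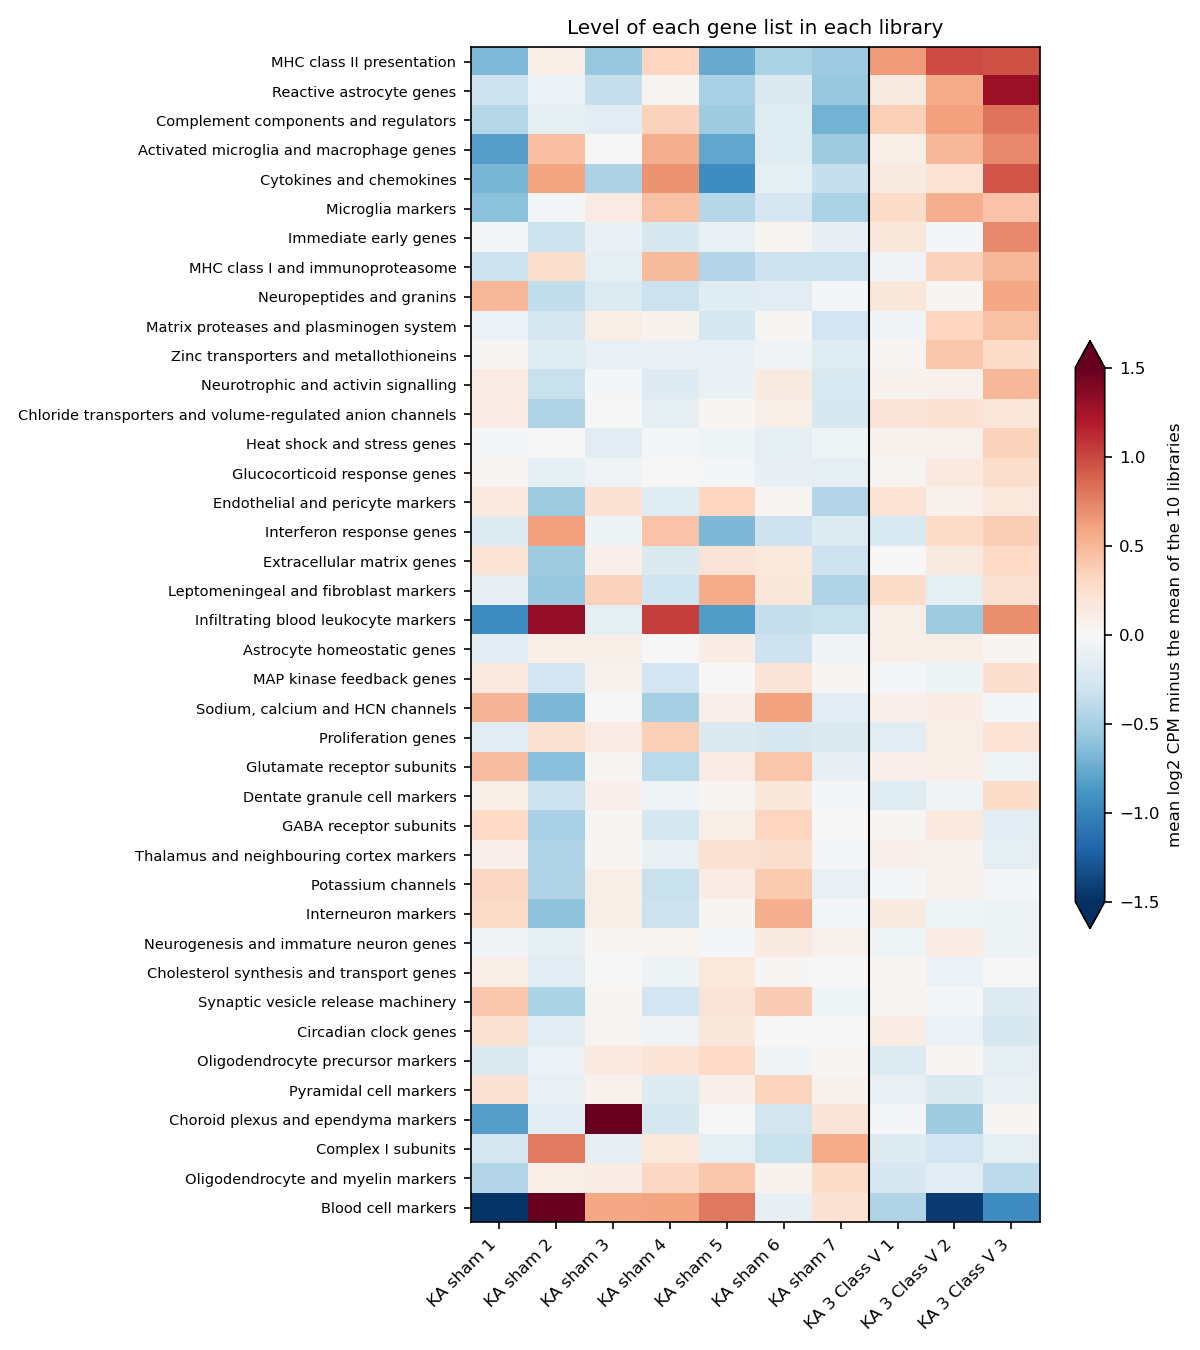
Each row is a gene list and each column a library; colour shows the mean log2 CPM of the list's genes minus the mean of the 10 libraries, with the shams left of the line. MHC class II genes score 0.63 to 0.98 in the 3 seizure libraries and -0.75 to 0.33 in the shams; reactive astrocyte genes reach 1.28 in KA 3 Class V 3.

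Immediate early genes beyond Fos were mixed. In 5 of the 24 on the list, with Fos, Egr2, Junb and Fosb among them, every seizure library lay above every sham (3.4% of all genes tested did). Of 24, 20 had a positive fold change with a median of 0.33, and the median became 0.10 without KA 3 Class V 3. EdgeR called Fos alone of the 24 (9 higher and 0 lower at an unadjusted p below 0.05), whereas DESeq2 called 5 higher and limma-voom 4 higher. Egr2, a zinc-finger factor, stood at 3.82, 3.27 and 5.01 CPM, against 0.871, 1.23 and 2.11 CPM (log2 1.55 ± 0.27 SE, adjusted p = 0.0703). Junb, an AP-1 partner of Fos, stood at 77.7, 74.2 and 89.5 CPM, against 57.5, 62.0 and 70.3 CPM (log2 0.37 ± 0.09 SE, adjusted p = 0.161). Fosb stood at 7.41, 5.59 and 15.8 CPM, against 2.28, 3.44 and 5.26 CPM (log2 1.37 ± 0.31 SE, adjusted p = 0.122). Egr1, outside the rule, overlapped at 46.3, 29.1 and 29.2 CPM against 20.1 to 45.7 CPM, and Npas4, also outside the rule, overlapped at 1.57, 1.53 and 1.48 CPM against 0.937 to 2.75 CPM.

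A further set of genes was at least 2-fold higher in KA 3 Class V 3 than in any other library. Sdc1, Lcn2, Egr3, Arc and Gadd45b, described here, lie outside the rule for named genes and were chosen after their values were seen. Sdc1, the proteoglycan syndecan 1, stood at 53.7 CPM there, at 1.80 and 3.56 CPM in the other 2 seizure libraries, and at 2.37 to 3.81 CPM in the shams. Arc, a synaptic immediate early gene, stood at 402 CPM there, against 96.0 and 75.9 CPM in the other 2 and 88.7 to 149 CPM in the shams. Egr3 stood at 133 CPM there, against 25.5 and 27.2 CPM and a sham range of 26.9 to 40.4 CPM. Gadd45b, a stress gene linked to DNA demethylation, stood at 60.7 CPM there, against 19.1 and 16.4 CPM and a sham range of 11.4 to 17.5 CPM. In KA 3 Class V 1 Gadd45b thus also lay above every sham. Lcn2, an acute-phase protein of reactive astrocytes, stood at 48.5 CPM there, against 1.998 and 1.61 CPM and a sham range of 1.46 to 6.16 CPM. Leaving out that library turned the log2 fold changes of Sdc1, Arc, Egr3 and Lcn2 negative, at -0.07, -0.34, -0.28 and -0.67.

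Trh, Npy and Nptx2, which are known to be induced by seizures, were highest in KA 3 Class V 3. In the other 2 seizure libraries Trh lay above every sham other than KA sham 1, and Npy lay above the median sham. On a list of 22 neuropeptides and granins, 12 had a positive fold change with a median of 0.22. Of the list, 0 passed in edgeR (3 higher and 1 lower at an unadjusted p below 0.05), DESeq2 called 1 higher and 1 lower, and limma-voom 2 higher and 1 lower. Trh, thyrotropin-releasing hormone, stood at 29.2, 20.1 and 389 CPM, against 1.02, 2.13 and 24.2 CPM as the lowest, median and highest sham (log2 4.74 ± 1.05 SE, adjusted p = 0.121). The highest sham for Trh was KA sham 1, and the next was at 4.65 CPM. Without KA sham 1 the log2 fold change was 5.95 and passed edgeR's threshold, without KA 3 Class V 3 it was 2.17 and did not, and without both it was 3.35 and did not. DESeq2 called Trh higher with all 10 libraries, without KA 3 Class V 3 and without both, and limma-voom called it with all 10.

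Npy, a neuropeptide that dampens glutamate release, stood at 116, 201 and 884 CPM, against 69.4, 102 and 343 CPM, with KA sham 1 again the highest sham (log2 1.61 ± 0.59 SE, adjusted p = 0.319). Nptx2, a pentraxin that clusters glutamate receptors, stood at 61.3, 103 and 406 CPM, against 38.7, 71.4 and 137 CPM, with the same highest sham (log2 1.29 ± 0.51 SE, adjusted p = 0.356). Their log2 fold changes became 0.28 and 0.08 without KA 3 Class V 3. Nts, neurotensin, went the other way, at 25.2, 19.9 and 18.02 CPM against 25.1, 40.1 and 56.2 CPM (log2 -0.91 ± 0.23 SE, adjusted p = 0.165).

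**Figure D4:**
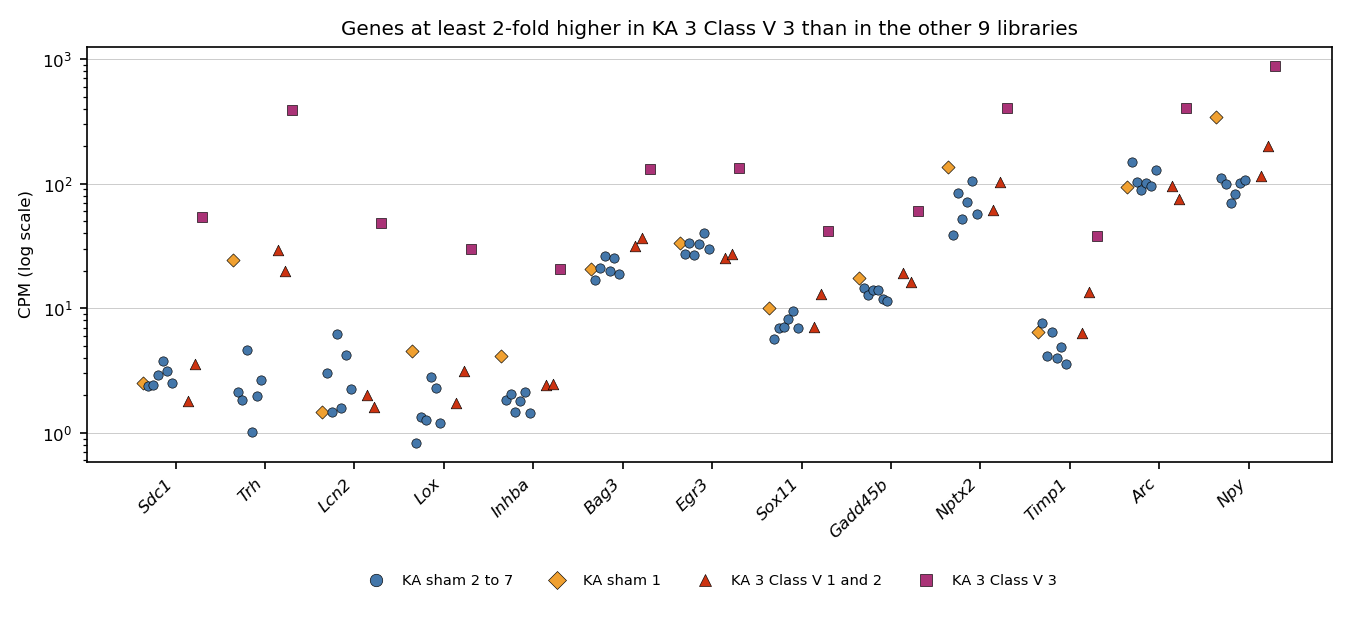
The level in each library, in CPM on a log scale, of 13 genes that are at least 2-fold higher in KA 3 Class V 3 (square) than in the other 9 libraries. KA 3 Class V 1 and 2 (triangles) lie among or near the 7 shams (circles, with KA sham 1 as a diamond) except for Bag3, Trh and Timp1. Both triangles lie above every sham for Bag3 and above every sham but KA sham 1 for Trh, and KA 3 Class V 2 lies above every sham for Timp1. For Sdc1 the square is at 53.7 CPM and the next library at 3.81 CPM.

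Genes that remodel the matrix and signal to growing cells included members that stood apart in all 3 seizure libraries. Others did so in KA 3 Class V 3 but not in all 3. Of 20 matrix protease and plasminogen genes, 15 had a positive fold change with a median of 0.45 (0.19 without KA 3 Class V 3), and 0 were called by edgeR (9 higher and 2 lower at an unadjusted p below 0.05), 6 higher by DESeq2 and 5 higher by limma-voom. Adamts1, a protease of proteoglycans, stood at 15.2, 15.2 and 15.9 CPM, against 5.18, 8.22 and 11.3 CPM (log2 0.92 ± 0.20 SE, adjusted p = 0.119). Plat, tissue plasminogen activator, stood at 108, 117 and 123 CPM, against 56.8, 78.1 and 88.7 CPM (log2 0.64 ± 0.14 SE, adjusted p = 0.119). Timp1, a metalloprotease inhibitor, stood at 6.35, 13.6 and 37.9 CPM, against 3.59, 4.90 and 7.64 CPM (log2 1.86 ± 0.42 SE, adjusted p = 0.121). Inhba, the activin A subunit, stood at 2.40, 2.48 and 20.7 CPM, against 1.44, 1.82 and 4.11 CPM (log2 2.0003 ± 0.58 SE, adjusted p = 0.218), and its log2 fold change was 0.20 without KA 3 Class V 3.

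Sft2d2, a Golgi transport protein, and Itpkb, a kinase of inositol phosphates, came closest to the threshold among the named genes that missed it. Itpkb stood at 72.2, 78.5 and 128 CPM, against 44.7, 49.7 and 52.7 CPM (log2 0.93 ± 0.15 SE, adjusted p = 0.0563). Sft2d2 was even, at 16.5, 16.1 and 16.2 CPM against 6.68, 8.56 and 11.3 CPM (log2 0.88 ± 0.15 SE, adjusted p = 0.0599). Slc39a12, a zinc transporter, was high in 1 library of a different number, at 22.8 CPM in KA 3 Class V 2 against 2.93 and 3.62 CPM in the other 2 and 1.32 to 3.02 CPM in the shams (log2 2.23 ± 0.51 SE, adjusted p = 0.122).

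No gene was called lower by edgeR at the adjusted threshold, out of 13196 tested, although 572 had an unadjusted p below 0.05 and a negative fold change (4.33%), and in 316 (2.39%) every 3 Class V library lay below every sham. DESeq2 called 141 lower (1.07%) and limma-voom 140 (1.06%), with 91 in both. The 15 genes with the smallest p among those with no overlap are given as values that did not pass.

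Nhlh1, a neuronal helix-loop-helix factor, had the most negative fold change of the 15, at 2.20, 3.25 and 0.738 CPM against 5.73, 7.19 and 9.88 CPM as the lowest, median and highest sham (log2 -1.89 ± 0.37 SE, adjusted p = 0.0929). Fxyd7, a brain regulator of the sodium pump, stood at 40.9, 31.7 and 24.0 CPM, against 47.9, 83.9 and 129 CPM (log2 -1.38 ± 0.29 SE, adjusted p = 0.105). Tmem114 stood at 1.01, 1.35 and 1.17 CPM, against 1.77, 2.59 and 3.42 CPM (log2 -1.16 ± 0.21 SE, adjusted p = 0.0816). Fzd7, a Wnt receptor, stood at 3.24, 3.39 and 3.18 CPM, against 4.65, 7.54 and 8.41 CPM (log2 -1.07 ± 0.20 SE, adjusted p = 0.085). For Tmem114, Fzd7 and Fxyd7 the lowest sham was KA sham 1, and without it all 3 passed edgeR's threshold, at log2 fold changes of -1.25, -1.17 and -1.501.

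Most others of the 15 showed smaller differences at higher levels. Matk, a kinase of the Csk family, stood at 127, 120 and 125 CPM, against 158, 174 and 196 CPM (log2 -0.50 ± 0.09 SE, adjusted p = 0.085). B3gat1, which makes the HNK-1 sugar of neural adhesion molecules, stood at 182, 191 and 181 CPM, against 230, 270 and 300 CPM (log2 -0.53 ± 0.11 SE, adjusted p = 0.0929), and its relative B3gat2 at 29.4, 33.8 and 29.5 CPM, against 34.6, 48.9 and 52.6 CPM. Camkk2, a kinase upstream of calcium/calmodulin kinases, stood at 55.6, 43.9 and 53.4 CPM, against 65.4, 74.3 and 98.6 CPM (log2 -0.63 ± 0.14 SE, adjusted p = 0.119). Arhgef25, Gal3st3, Pip5k1c, Jph4, Mei1 and Gzmm made up the list with Clcn2, with log2 fold changes from -0.41 for Pip5k1c to -1.11 for Mei1.

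**Figure D5:**
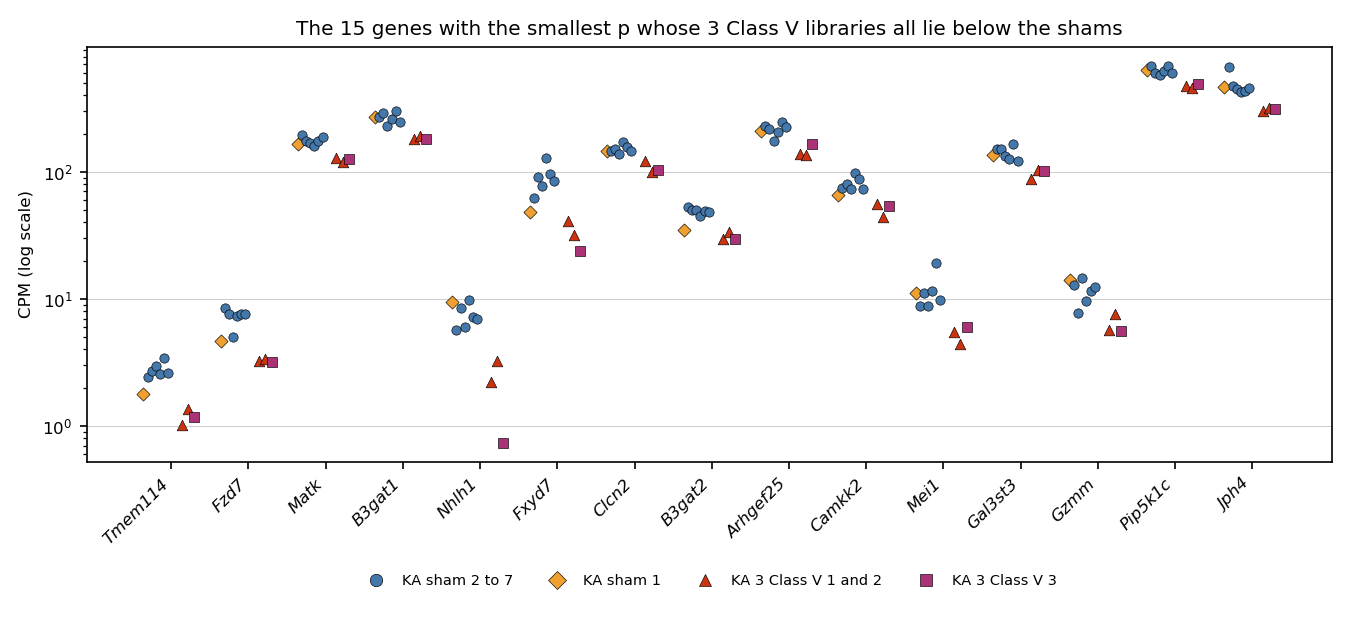
The level in each library, in CPM on a log scale, of the 15 genes with the smallest p among those in which every 3 Class V library (triangles, and a square for the third) lies below every sham (circles, and a diamond for KA sham 1). None passed the adjusted threshold in edgeR; Nhlh1 has the widest gap, with 0.738 to 3.25 CPM against 5.73 to 9.88 CPM.

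Several potassium, chloride and pacemaker channel genes held such small negative differences. Of 30 potassium channel genes, 10 had a positive and 20 a negative fold change, with a median of -0.13. In edgeR 0 of the 30 were called (1 higher and 4 lower at an unadjusted p below 0.05), DESeq2 called 2 lower and limma-voom 3 lower. Kcnip2, a subunit that tunes A-type potassium current, stood at 234, 243 and 279 CPM, against 293, 395 and 439 CPM (log2 -0.58 ± 0.13 SE, adjusted p = 0.122). Kcnn1, a calcium-activated potassium channel, stood at 15.6, 14.3 and 16.1 CPM, against 17.9, 19.7 and 21.9 CPM (log2 -0.38 ± 0.10 SE, adjusted p = 0.161). Clcn2, a chloride channel, stood at 121, 100 and 104 CPM, against 138, 146 and 171 CPM (log2 -0.48 ± 0.10 SE, adjusted p = 0.111). Hcn2, a pacemaker channel, stood at 165, 150 and 151 CPM, against 171, 183 and 221 CPM (log2 -0.27 ± 0.10 SE, adjusted p = 0.329). In each of these 4 genes every seizure library lay below every sham, as in 2.39% of all genes tested. That held for 3 of the 30 potassium channel genes. It held for 1 of 25 sodium, calcium and HCN channel genes and 1 of 13 chloride transporter and anion channel genes.

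Of 25 sodium, calcium and HCN channel genes, 20 had a negative fold change with a median of -0.09. EdgeR called 0 of the 25 (1 higher and 2 lower at an unadjusted p below 0.05), DESeq2 called 1 higher, and limma-voom 1 higher and 1 lower. Scn7a, an atypical sodium channel, lay the other way, at 4.53, 8.78 and 18.5 CPM against 0.597, 1.62 and 3.58 CPM as the lowest, median and highest sham (log2 2.47 ± 0.48 SE, adjusted p = 0.0896). Every seizure library was above every sham, DESeq2 and limma-voom both called Scn7a, and its log2 fold change was 1.80 without KA 3 Class V 3. Of 26 genes of synaptic vesicle release, 19 had a negative fold change with a median of -0.14, 0 were called by edgeR (0 higher and 5 lower at an unadjusted p below 0.05) or DESeq2, and 1 was called lower by limma-voom.

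Of 16 pyramidal cell markers, 13 had a negative fold change with a median of -0.18, or -0.24 without KA 3 Class V 3. Of the list, 0 passed in edgeR (0 higher and 4 lower at an unadjusted p below 0.05), and DESeq2 and limma-voom each called 3 lower. Pou3f1, a transcription factor of pyramidal neurons, stood at 70.5, 83.8 and 88.0 CPM, against 96.0, 111 and 144 CPM (log2 -0.50 ± 0.13 SE, adjusted p = 0.172). Mpped1 stood at 229, 183 and 247 CPM, against 277, 321 and 435 CPM (log2 -0.56 ± 0.16 SE, adjusted p = 0.215). Nrgn, the calmodulin-binding neurogranin of spines, named outside the rule, stood at 1465, 1334 and 1731 CPM, against 1794, 2047 and 2330 CPM (log2 -0.42 ± 0.12 SE, adjusted p = 0.22). Dentate granule and interneuron markers had medians of -0.01 and -0.04, with 0 called by edgeR (2 higher and 1 lower, and 0 and 2, at an unadjusted p below 0.05), DESeq2 or limma-voom.

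Myelin, respiratory and blood genes were lower on balance but overlapped between the groups. Of 16 oligodendrocyte and myelin markers, 14 had a negative fold change with a median of -0.43. In edgeR 0 of the 16 were called (0 higher and 9 lower at an unadjusted p below 0.05), DESeq2 called 1 lower and limma-voom 2 lower. Mbp, myelin basic protein, stood at 7831, 7376 and 8002 CPM, against 7493, 14650 and 23950 CPM (log2 -0.93 ± 0.32 SE, adjusted p = 0.286). Mobp, another myelin protein, stood at 594, 565 and 601 CPM, against 584, 1099 and 1419 CPM (log2 -0.82 ± 0.25 SE, adjusted p = 0.233). For both genes KA sham 1 was the lowest sham, and it lay beside the seizure libraries. Of 33 subunits of respiratory complex I, 32 had a negative fold change with a median of -0.38, 0 were called by edgeR (0 at an unadjusted p below 0.05), DESeq2 or limma-voom, and the summed level of 3674 to 4017 CPM in the seizure libraries lay inside the sham range of 3601 to 7915 CPM. Of 8 blood cell markers tested, haemoglobin genes among them, 8 had a negative fold change. EdgeR called 0 of the 8 (0 higher and 6 lower at an unadjusted p below 0.05), DESeq2 called 1 lower and limma-voom 0. The blood list summed to 496 to 1148 CPM in the seizure libraries and 469 to 7947 CPM in the shams, with the top value in KA sham 2.

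Markers of tissue beside the hippocampus were spread by library. Choroid plexus markers summed to 67.3 to 97.8 CPM in the seizure libraries and 55.3 to 702 CPM in the shams, where KA sham 3 held 583 CPM of Ttr, the transthyretin of choroid plexus. Of 15 tested choroid plexus and ependyma genes, Foxj1, the factor that drives motile cilia, was the 1 with no overlap, at 23.2, 26.6 and 23.7 CPM against 13.4, 16.9 and 17.9 CPM (log2 0.63 ± 0.11 SE, adjusted p = 0.0748). Of 14 leptomeningeal and fibroblast genes, 7 had a positive fold change with a median of 0.01, and Fmod, a collagen-binding proteoglycan, was the 1 with no overlap, at 18.3, 17.6 and 24.0 CPM against 5.98, 10.5 and 11.4 CPM (log2 1.05 ± 0.19 SE, adjusted p = 0.0789). Of 14 thalamus and neighbouring cortex markers, 5 had a positive fold change with a median of -0.04 and 0 called by edgeR (1 higher and 0 lower at an unadjusted p below 0.05), DESeq2 or limma-voom. How far the share of these tissues in each dissection contributes to the other results was not tested.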

How the data were processed

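Per the labels, polyadenylated RNA was made into NEBNext Ultra II libraries and read single-end for 110 bases. Raw counts of reads per gene symbol were deposited by the authors as 1 table, in which 0 columns were left unmatched to a sample. The submitters' processing notes name the build rn6 and, with no version, the tools HISAT2, featureCounts, Trimmomatic, FastQC and DESeq2. The annotation, strand setting and handling of reads with several matches were not given in the sources used here.

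The 7 KA sham and 3 KA 3 Class V libraries were normalized (TMM) and tested together with edgeR 4.0.16 in R 4.3.3: filterByExpr, the robust quasi-likelihood F test, two-sided, with Benjamini-Hochberg adjustment over 13196 genes and a threshold of 0.05. The fit left 8 residual degrees of freedom. SE was taken as the size of the log2 fold change over the root of F. CPM values are TMM-scaled. DESeq2 1.42.0, limma-voom 3.58.1 with quality weights, other scalings and filters, all 18 libraries, a replicate block, a ribosomal protein score and leaving out each library were alternatives. The fits were tested on simulated data. Replicate numbers were not taken to pair the libraries.

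The members and the 40 gene lists (795 entries, 768 in the table, 740 tested) were chosen with earlier results of these data known, so lists are described by counts and medians and not tested. Genes were named by a rule: the 15 largest called changes in each direction without overlap and with a mean log2 CPM of at least 1, filled by smallest p; up to 4 members per list with the smallest p; the 5 called genes moving most without KA 3 Class V 3 and the 5 without KA sham 1; and up to 8 in each direction called without both. Named outside it, after their values were seen, were RT1-Db2, RT1-Da, RT1-DOb, S100a9, Cd79b, Gfap, Vim, C3, C1qa, P2ry12, Tmem119, Il1b, Egr1, Egr3, Npas4, Arc, Sdc1, Lcn2, Gadd45b and Nrgn. Of the 17 called genes, 1 is not reported here. Promoters come from RefSeq.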

Additional observations from a re-analysis of the deposited data

Results flagged for a closer look

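Among the 7 shams, 9 of the 196 genes checked had a library farther from the others than Dixon's test allows at the 95% level (on the log2 scale of CPM plus 0.05), and chance gives about 1 in 20. KA sham 1 was the high value for Npy at 343 CPM, Inhba at 4.11 CPM and Tef, a clock output factor, at 415 CPM. The same library was the low value for B3gat2 at 34.6 CPM and for Plk5 at 3.24 CPM. KA sham 2 was the high value for Jph4 at 664 CPM and for Ly6c at 2.9 CPM. KA sham 6 was the high value for Mei1 at 19.1 CPM and the low value for Bmp4 at 9.46 CPM. Groups of 3 were not tested this way, so the high levels of KA 3 Class V 3 are outside this check.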

How the results depend on the processing

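With other filters, scalings or libraries (RLE, upper quartile, no filter, 1 CPM in 3 libraries, all 18 libraries), edgeR called 15 to 23 genes higher and 0 lower. Higher and lower calls were 230 and 141 with DESeq2, 307 and 140 with limma-voom, 306 and 199 when a ribosomal protein score was a covariate, and 0 and 0 without both KA sham 1 and KA 3 Class V 3. Leaving out 1 library gave 0 to 38 higher and 0 to 7 lower (8, 7 and 6 higher without KA sham 5, 6 and 7). Chosen after seeing the data, DESeq2 gave 69 and 57 without KA 3 Class V 3 and 78 and 104 without both libraries, and limma-voom 91 and 78 without both. The cause was not tested.

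Deviations of same-numbered libraries from their group means correlated at 0.009, -0.145 and -0.085. Pairs with different numbers ranged from -0.237 to 0.318, so the numbers were not taken to pair the libraries. With the replicate block edgeR called 0 higher and 0 lower (495 and 134 at an unadjusted p below 0.05). Shams whose number no seizure library shares add nothing to that contrast. It therefore rests on few libraries, and its lack of calls decides nothing.

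Of 720 list medians under alternatives, 705 moved by under 1 SD of the shams. Leaving out 1 library put the reactive astrocyte median between 0.568 and 1.148, and it was 0.525 without both. Without KA 3 Class V 3 and without both, the medians were 0.103 and 0.133 for immediate early genes, 0.075 and 0.052 for heat shock genes (0.079 without KA sham 2), 0.186 and 0.24 for matrix proteases, and 0.061 and 0.047 for glucocorticoid response genes. The neurogenesis median was -0.149 without KA sham 1, and without KA 3 Class V 1 the zinc median was 0.205 and the clock median -0.33. Log2 fold changes turned negative without KA 3 Class V 3 and without both for Ccl7 (-0.14, -0.361), Cxcl13 (-0.25, -0.366), Gabra4 (-0.032, -0.022), Pdzd2 (-0.043, -0.04), Arc (-0.338, -0.396), Egr3 (-0.281, -0.297), Lcn2 (-0.673, -0.822) and Sdc1 (-0.065, -0.117). With 3 seizure libraries, a difference that missed the threshold is not shown to be absent.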
